A study of Mus musculus with 3 samples.

Results

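Signals of 10 genes of the G1 phase machinery were followed in mouse muscle stem cells (MuSC): the D-type cyclins Ccnd1, Ccnd2 and Ccnd3, the E-type cyclins Ccne1 and Ccne2, the cyclin-dependent kinases Cdk2, Cdk4 and Cdk6, and the transcription factors E2f1 and E2f3. These are 10 of the 18193 genes that the annotation of the array assigns to probe sets of their own. A probe set, the group of short probes that reads a transcript, was used if the annotation gave it to a single gene, which left 34945 probe sets, 29 of them for the 10 genes. The probe set with the highest mean signal over the arrays stood for its gene, and the others served as a check. Of the 29, 16 exceeded the background level on all 3 arrays, 24 on at least 1 and 5 on none.

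The data analysed here are 3 Affymetrix arrays, with 1 array per condition, so that no value below has a replicate error, a standard deviation or a test. The study mentions biological replicates of its OSM data, and no other arrays were analysed here. Fresh MuSC were measured directly after isolation, without culture. MuSC −OSM, the control culture, were kept for 3 days in medium with 10% fetal bovine serum. MuSC +OSM, the OSM culture, were kept for the same 3 days in the same medium with oncostatin M (OSM), an IL-6 family cytokine, at 100 ng/mL. The cells of all 3 conditions were wildtype, came from muscle of 8 weeks old C57BL/6 mice, and had been sorted for CD34 and α7 integrin, in the methods after removal of cells with CD45, CD11b, CD31 or Sca1. The sources used here do not say how many animals contributed to an array. A bulk array cannot tell fewer cells with a transcript apart from less of that transcript per cell.

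Satellite cells in resting muscle are out of the cell cycle and enter it when they are activated. On the way in, D-type cyclins bind CDK4 or CDK6 and begin to phosphorylate the retinoblastoma protein, which holds E2F transcription factors in check. Released E2Fs switch on the genes of DNA synthesis and of the E-type cyclins, and cyclin E with CDK2 completes the phosphorylation and drives the entry into S phase.

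The 10 genes did not move as a block. Ccnd1 was 6.52-fold lower in the OSM culture than in the control culture, while the other 9 genes lay within 2-fold between the cultures. Against the control culture, fresh cells had higher signals of Ccnd1 and Ccnd2 and lower signals of Ccne2 and of the main probe sets of Ccnd3 and Ccne1. For Ccnd3 both other probe sets pointed the other way, and for Ccne1 the second was lower by a log2 ratio of -0.23 only. In the main probe sets, the highest signal was in fresh cells for 2 genes (Ccnd1 and Ccnd2). It was in the control culture for 5 genes (Ccne1, Cdk2, Cdk4, E2f3 and, too close to the floor for its order to be read, E2f1). For 3 genes (Ccnd3, Ccne2 and Cdk6) it was in the OSM culture. Ccnd3, Ccne1, Cdk4 and E2f3 each had another probe set that was highest on a different array. How all genes divide among the arrays was not counted. Signals are MAS5 intensities on a linear scale. They were raised to at least 40, the median over all probe sets and arrays, before a ratio was taken, and this level is called the floor. A signal at or under it was read as not above background. All comparisons draw on the same 3 arrays and share them in pairs, so they are not independent of each other.

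**Figure D1:**
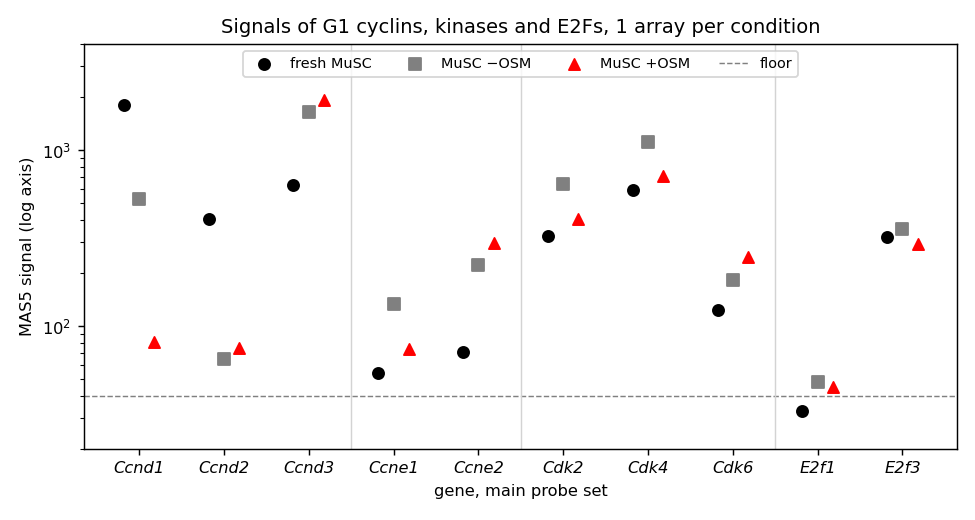
MAS5 signals (log axis) of the main probe set of each gene in fresh MuSC (black circles), MuSC −OSM (gray squares) and MuSC +OSM (red triangles), 1 array each, with the floor of 40 as a dashed line. Ccnd1 steps down from 1798 to 528 to 81, Ccnd2 is high in fresh MuSC alone, and the E-type cyclins and kinases are lowest in fresh MuSC.

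Stretches before the start sites of Ccnd3, Ccne1, Cdk2, Cdk4 and E2f3 are shown. In their main probe sets Ccne1, Cdk2 and Cdk4 had the control culture highest and fresh cells lowest, an order that Ccnd3 did not have. E2f1 had that order too, but too close to the floor to be read, and is not shown. Other probe sets of Ccne1 (1416492_at) and Cdk4 (1422439_a_at) were instead highest in the OSM culture. E2f3 was chosen because it holds an E2F word. The RefSeq table used (build GRCm38.p6) had 9 start sites of 7 of the 10 genes, and the 250 bases before each were read from it on the strand of the gene, 5′ to 3′. Capitals mark the E2F word (TTTCCCGC, TTTCGCGC, TTTGCCGC or TTTGGCGC), bound by E2F proteins, and the GC box (GGGCGG), bound by Sp1, each searched on both strands. STAT words (TTCNNNGAA), searched because OSM signals through STAT3, occurred in 0 of the 9 stretches.
Ccnd3, chr17:47504801-47505050, plus strand: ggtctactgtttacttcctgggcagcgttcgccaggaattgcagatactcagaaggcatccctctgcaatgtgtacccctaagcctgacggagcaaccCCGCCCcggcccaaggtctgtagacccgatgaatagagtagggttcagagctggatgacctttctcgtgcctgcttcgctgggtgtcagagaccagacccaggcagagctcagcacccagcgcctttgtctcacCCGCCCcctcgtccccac
Ccne1, chr7:38107491-38107740, minus strand: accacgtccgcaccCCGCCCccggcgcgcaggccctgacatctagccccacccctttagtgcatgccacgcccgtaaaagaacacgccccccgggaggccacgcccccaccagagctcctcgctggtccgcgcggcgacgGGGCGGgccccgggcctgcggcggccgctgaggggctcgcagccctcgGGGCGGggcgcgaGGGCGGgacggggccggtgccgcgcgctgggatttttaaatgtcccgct
Cdk2, chr10:128705052-128705301, minus strand: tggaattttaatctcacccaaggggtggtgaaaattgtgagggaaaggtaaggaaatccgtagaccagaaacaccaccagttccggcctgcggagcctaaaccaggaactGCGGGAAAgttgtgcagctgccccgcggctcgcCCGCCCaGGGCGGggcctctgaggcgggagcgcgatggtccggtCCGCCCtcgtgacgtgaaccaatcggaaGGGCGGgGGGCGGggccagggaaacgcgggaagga
Cdk4, chr10:127063285-127063534, plus strand: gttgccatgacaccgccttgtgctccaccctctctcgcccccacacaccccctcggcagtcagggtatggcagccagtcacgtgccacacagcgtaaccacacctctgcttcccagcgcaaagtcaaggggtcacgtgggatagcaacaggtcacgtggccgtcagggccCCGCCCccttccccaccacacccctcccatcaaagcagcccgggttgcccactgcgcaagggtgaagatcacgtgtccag
E2f3, chr13:29986064-29986313, minus strand: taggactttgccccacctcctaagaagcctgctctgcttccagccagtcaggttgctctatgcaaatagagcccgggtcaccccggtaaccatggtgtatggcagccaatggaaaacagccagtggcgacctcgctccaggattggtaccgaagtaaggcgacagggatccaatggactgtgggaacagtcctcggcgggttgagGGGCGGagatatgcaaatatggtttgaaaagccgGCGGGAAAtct
The GC box occurred in 8 of the 9 stretches, the exception being that of Cdk6. The E2F word occurred in 2, 140 bases before the start of Cdk2 and 11 bases before the upstream start of E2f3, in each case as GCGGGAAA, the reverse complement of TTTCCCGC. No E2F word shown overlapped a GC box. Of all 32851 start sites in the table, 32.7% had a GC box in the same length, 1.86% an E2F word and 7.02% a STAT word. The matches describe letters in these windows and are no evidence of binding. No promoter is shown for Ccnd1, Ccnd2 or Ccne2. Ccnd3 and E2f3 each had a further start site whose stretch is not shown. That of Ccnd3 held 1 GC box, that of the downstream start of E2f3 held 3, and neither held an E2F word.

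Cyclin D1, the D-type cyclin best known for answering growth factor signals, had the largest ratio of the 10 genes between the cultures. Ccnd1 (chromosome 7, probe set 1448698_at) had a signal of 1798 in fresh cells, 528 in the control culture and 81 in the OSM culture. The 3 arrays thus formed a descending series with the OSM culture at the bottom, above the floor. The log2 ratio of the OSM culture over the control culture was -2.70, and only 4 of the 11271 measured genes had a lower one. A gene counted as measured in a comparison if its signal exceeded the floor on 1 or both of the arrays. Among genes of similar mean signal, the middle 90% of ratios ran from -0.82 to 1.20, so that Ccnd1 lay outside.

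The other probe sets of Ccnd1 gave the same order. Probe set 1417420_at read 1674, 329 and 87 in fresh cells, the control culture and the OSM culture, and 1417419_at read 538, 178 and 5. Between the cultures they were 3.78-fold and at least 4.45-fold lower with OSM, and both were over 3-fold higher in fresh cells than in the control culture (5.09-fold and 3.02-fold, against 3.41-fold in the main probe set). Ccnd1 was therefore the only gene of the 10 for which every probe set moved by at least 2-fold in the same direction in all comparisons. Probe sets of a gene share an array and are not replicates. For scale, over the 5132 genes with at least 2 measured probe sets, the main one and the next differed by a median of 0.34 in log2 ratio between the cultures, and by more than 0.92 in 10% of genes.

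From fresh cells to the OSM culture, Ccnd1 was 22.2-fold lower, with 75 of 12483 measured genes below it. The genes nearest to Ccnd1 in their 3 log2 signals, each taken relative to its own mean, out of 9424 genes above the floor on every array, were Nfatc2, Tnfaip3 and Spry1. Nfatc2, a calcium-responsive transcription factor, read 616 in fresh cells, 131 in the control culture and 45 in the OSM culture. Tnfaip3, an inhibitor of NF-κB signalling, read 2975, 336 and 84. Spry1, a feedback inhibitor of receptor tyrosine kinase signalling, read 4387, 694 and 285. With 3 points per gene, this likeness describes the order and steepness of the signals only.

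Cyclin D2 followed a different course. Ccnd2 (chromosome 6, 1434745_at) had a signal of 405 in fresh cells, 65 in the control culture and 75 in the OSM culture. It was 6.23-fold higher in fresh cells than in the control culture and 5.40-fold higher than in the OSM culture. The cultures differed by a log2 ratio of 0.21, and the other 3 probe sets measured in that comparison lay between -0.56 and 0.11, so the probe sets did not share a direction. In fresh cells over the control culture, 5 of 5 other measured probe sets were higher in fresh cells, 4 of them by at least 2-fold. The exception, 1416123_at, read 53 in fresh cells and was under the floor in both cultures, and a 7th probe set, 1416124_at, was under the floor on every array.

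Cyclin D3, which in muscle is known for accumulating as myoblasts leave the cycle and differentiate, ran the other way in its main probe set. Ccnd3 (chromosome 17, 1415907_at) had a signal of 631 in fresh cells, 1643 in the control culture and 1911 in the OSM culture. It was 2.60-fold lower in fresh cells than in the control culture and 3.03-fold higher in the OSM culture than in fresh cells, with 0.22 on the log2 scale between the cultures. The other probe sets of Ccnd3 opposed it. Probe set 1438805_at read 152 in fresh cells, 17 in the control culture and 24 in the OSM culture, and 1444323_at read 82, 48 and 63. Both were highest in fresh cells, and the direction of Ccnd3 between fresh and cultured cells rests on its main probe set.

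The main probe sets of the D-type cyclins differed in their ratios, and multiplying an array by a factor cannot move such differences within an array. With OSM, the ratio of Ccnd1 was 7.58-fold lower than that of Ccnd3 and 7.52-fold lower than that of Ccnd2. The ratios of Ccnd2 and Ccnd3 differed by -0.01 on the log2 scale in the same comparison. In fresh cells over the control culture the ratio of Ccnd2 was 16.2-fold above that of Ccnd3, and the ratio of Ccnd1 8.87-fold above it. From fresh cells to the OSM culture, the ratios of Ccnd1 and Ccnd3 lay 67.2-fold apart. The gaps to Ccnd3 against fresh cells rest on its main probe set. With the median of all probe sets of each gene they shrank to 2.83-fold for Ccnd2 and 1.99-fold for Ccnd1 in fresh cells over the control culture, and to 14.8-fold for Ccnd1 from fresh cells to the OSM culture. With OSM that rule gave 5.50-fold between Ccnd1 and Ccnd3 and 3.94-fold between Ccnd1 and Ccnd2. Such differences show unequal change among the cyclins and do not show that any of them was constant.

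The E-type cyclins, activators of CDK2 at the G1/S boundary, had their lowest signals in fresh cells. Ccne2 (chromosome 4, 1422535_at, the only probe set) had a signal of 71 in fresh cells, 222 in the control culture and 294 in the OSM culture. Fresh cells were 3.13-fold below the control culture and 4.14-fold below the OSM culture, and the cultures were 1.32-fold apart. Ccne1 (chromosome 7, 1441910_x_at) had a signal of 54 in fresh cells, 133 in the control culture and 74 in the OSM culture. It was 2.46-fold lower in fresh cells than in the control culture and 1.80-fold lower with OSM than without.

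The other probe set of Ccne1, 1416492_at, read 65, 76 and 95 in fresh cells, the control culture and the OSM culture, with the OSM culture on top. For Ccne1 the lower signal in fresh cells was thus common to both probe sets (1.17-fold in the second), and the direction with OSM was not. The main probe set carries the suffix _x_at, given to sets with probes that can also match other sequences. In the main probe sets the OSM ratio of Ccne1 was 2.38-fold below that of Ccne2.

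In their main probe sets, the kinases Cdk2 and Cdk4 peaked in the control culture and Cdk6 in the OSM culture, and all 3 were lowest in fresh cells. Cdk2 (chromosome 10, 1416873_a_at), the partner of cyclin E, had a signal of 326 in fresh cells, 639 in the control culture and 403 in the OSM culture. Its log2 ratios over the control culture were -0.97 in fresh cells and -0.67 in the OSM culture, the first just inside the 2-fold limit at 1.96-fold. Its second probe set, 1447617_at, was under the floor on every array. Cdk4 (chromosome 10, 1422441_x_at), a partner of the D-type cyclins, had a signal of 592 in fresh cells, 1103 in the control culture and 714 in the OSM culture. Cdk4 was 1.86-fold lower in fresh cells than in the control culture and 1.54-fold lower with OSM.

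All probe sets of Cdk4 were lower in fresh cells than in the control culture, and they split with OSM. Probe set 1422440_at read 377, 626 and 443 and had the order of the main one, whereas 1422439_a_at, with 400, 497 and 649, was highest in the OSM culture. Cdk6 (chromosome 5, 1455287_at), the other kinase that D-type cyclins activate, had a signal of 123 in fresh cells, 183 in the control culture and 245 in the OSM culture. It was 1.34-fold higher with OSM and 1.99-fold higher in the OSM culture than in fresh cells. Its probe set 1435338_at read 159, 109 and 261, again highest in the OSM culture, at 2.39-fold over the control culture, but lowest in the control culture. The third, 1460291_at, did not exceed the floor on any array. In the main probe sets the OSM ratio of Cdk4 was 2.07-fold below that of Cdk6, and that of Ccnd1 4.22-fold below that of its partner Cdk4.

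Of the E2Fs, the partners of the retinoblastoma protein, E2f3 was above the floor on every array in its main probe set and E2f1 was not. E2f3 (chromosome 13, 1434564_at), an activator of S phase genes, had a signal of 318 in fresh cells, 354 in the control culture and 293 in the OSM culture. The largest of its ratios was 1.21-fold, between the cultures. Its second probe set, 1427462_at, read 65, 43 and 38, highest in fresh cells, where it was 1.51-fold above the control culture. E2f1 (chromosome 2, 1431875_a_at), the founding member of the family and itself an E2F target, had a signal of 33 in fresh cells, 48 in the control culture and 45 in the OSM culture. These signals lie around the floor, its other probe sets never exceeded it, and no difference of E2f1 could be read at this level.

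**Figure D2:**
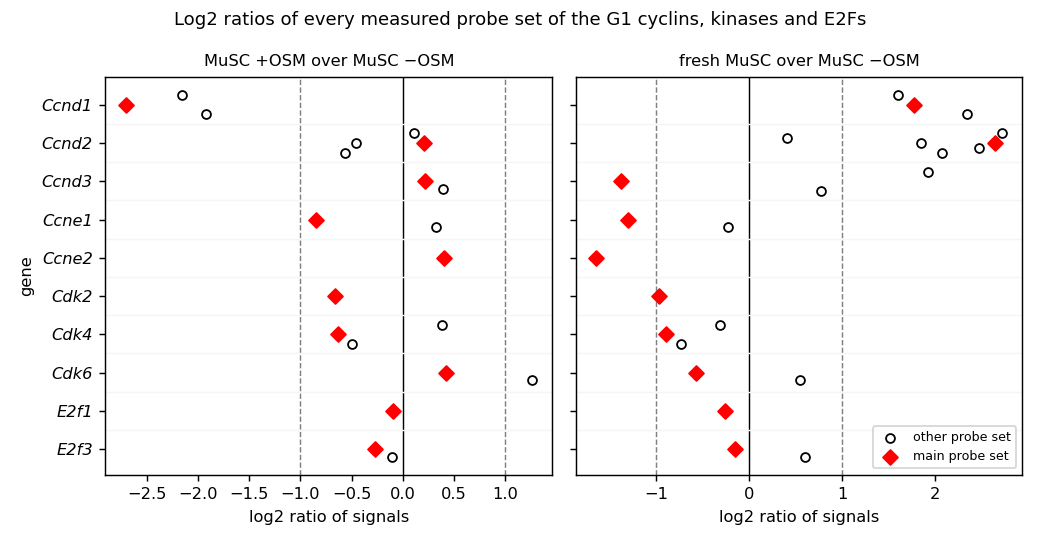
Log2 ratios of signals for every measured probe set of the 10 genes, MuSC +OSM over MuSC −OSM (left) and fresh MuSC over MuSC −OSM (right), with the main probe set as a red diamond, the others as open circles and 2-fold as dashed lines. The probe sets of Ccnd1 lie together between -2.70 and -1.92 on the left, those of Ccnd2 lie right of 0 on the right, and those of Ccnd3 lie on both sides of 0 on the right.

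Set against all genes, few of the 10 genes were far apart between the cultures. Of the 10 genes, 0 were at least 2-fold higher in the OSM culture than in the control culture, where 6.07% of all 11271 measured genes were, and 1 was at least 2-fold lower, where 4.39% were. That count is near the background, and what stood out was the size of the Ccnd1 ratio, the lone gene of the 10 outside the middle 90% of genes of similar signal. The median log2 ratio of the 10 genes was -0.18 and that of all measured genes -0.01. The first was -0.01 with centred arrays and 0.21 without _x_at probe sets, so its sign is not settled. Between the cultures 9 of the 10 genes and 89.5% of all genes lay within 2-fold. Of all called genes 58.0% were higher with OSM, which became 71.9% with each array centred on its median, 48.9% with a floor of 20 and 43.1% without a floor.

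Between fresh and cultured cells more of the group differed, as did more of all genes. In fresh cells over the control culture, 2 of the 10 genes were at least 2-fold higher (20.4% of 12755 measured genes) and 3 at least 2-fold lower (15.0%). The median log2 ratio of the group was -0.74 and that of all genes 0.14. In the main probe sets 8 genes had a ratio below 0, the exceptions being Ccnd1 and Ccnd2. The 8 include E2f1, whose signals lie around the floor. They also include Ccnd3, Cdk6 and E2f3, whose other measured probe sets lay above 0. All 10 ratios lay inside the middle 90% of genes of similar signal. Of the called genes 57.6% were higher in fresh cells, but 29.8% with arrays centred on their medians and 46.6% after quantile normalization. The median of all genes moved to -0.37 and -0.10 under these scalings.

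In the OSM culture over fresh cells, 2 of the 10 genes (Ccnd3 and Ccne2) were at least 2-fold higher, beside 13.8% of 12483 measured genes, and 2 (Ccnd1 and Ccnd2) at least 2-fold lower, beside 17.2%. Here Ccnd1, Ccnd2 and Ccne2 lay outside the middle 90% of genes of similar signal. The median of the group was 0.29 and that of all genes -0.14. The higher share of called genes was 44.5%, which became 80.3% with centred arrays and 54.8% after quantile normalization, with medians of all genes of 0.58 and 0.07.

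**Figure D3:**
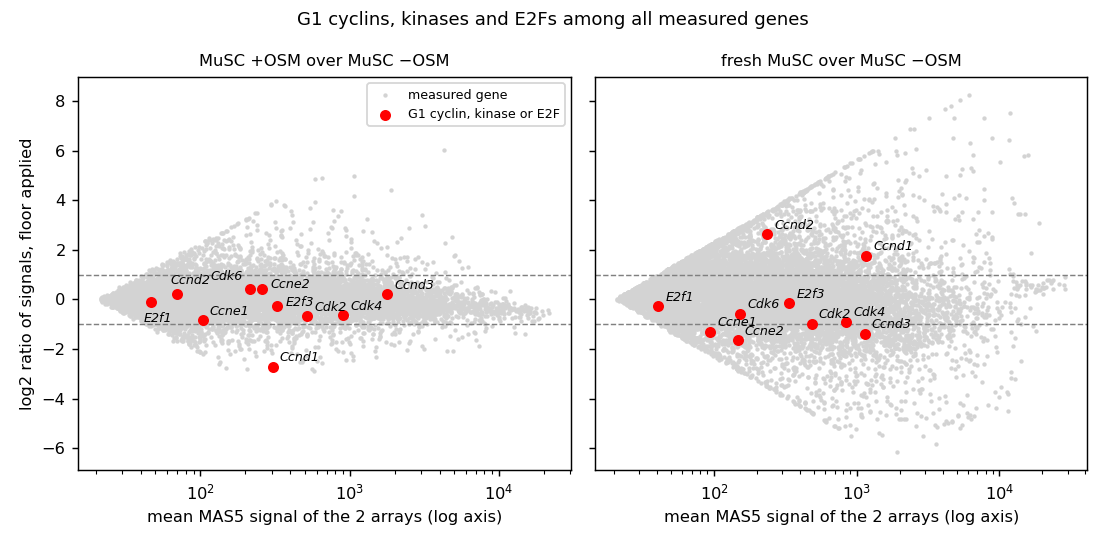
Log2 ratio, with the floor applied, against the mean MAS5 signal of the 2 arrays compared (log axis), for all measured genes (gray) and the 10 genes (red, named), with 2-fold as dashed lines. With OSM (left) Ccnd1 lies at the lower edge of the cloud and the other 9 within 2-fold, while in fresh MuSC over MuSC −OSM (right) all 10 lie inside a wider cloud.

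The arrays differ in ways that touch the fresh comparison. The median signal was 53 in fresh cells, 36 in the control culture and 32 in the OSM culture, at trimmed means of 198 to 199, and the ratio of 3′ to 5′ actin probe sets, a sign of RNA quality, was 2.35 in fresh cells against 1.40 and 1.41. Several markers of other cells were also higher there. The summed signal of 4 fibroblast markers was 13862 in fresh cells, 128 in the control culture and 623 in the OSM culture. That of 4 tenocyte markers was 6517, 531 and 630. In fresh cells most of it was Fmod (4308) and Tnmd (2062), while Scx went the other way (48, 327 and 104). That of 4 endothelial markers was 1122, 80 and 79. In fresh cells most of it was Tek (791) and Cdh5 (268), with Pecam1 (4, 4 and 2) under the floor on every array. That of 2 Schwann cell markers was 540, 38 and 113. Dcn, a fibroblast proteoglycan, was itself at 12179, 32 and 373, so that it also differed between the cultures. The 4 pericyte and smooth muscle markers summed to 8795, 19492 and 13587, most of it Acta2 (6543, 19053 and 13114), while the pericyte genes Rgs5 (1687, 35 and 59) and Kcnj8 (203, 23 and 83) were highest in fresh cells. The 4 leukocyte markers summed to 113, 139 and 66, with Ptprc and Itgam under the floor on every array. The 6 MuSC markers summed to 19526, 9867 and 11963, and Pax7, the defining transcription factor of satellite cells, read 4006, 282 and 431. These markers did not share a direction. In fresh cells over the control culture, 3 were at least 2-fold higher (Pax7, Myf5 and Vcam1) and 2 at least 2-fold lower. The lower ones were Itga7 (499, 1808 and 1238) and Des (744, 6183 and 7248). The part of other cells and of RNA quality in the ratios of the 10 genes was not tested. Fresh and cultured cells also differ in medium and time since isolation, which cannot be told apart here.

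The partners of the 10 genes were taken from lists of the same pathway. Among 10 CDK inhibitors and pocket proteins, 0 were at least 2-fold apart between the cultures, beside 6.07% of all genes higher and 4.39% lower. Their median log2 ratio was -0.27. With a floor of 20 or without a floor, 1 was lower, beside 6.76% and 17.2% of all genes. The largest ratios with OSM were those of Cdkn2a (at least 1.58-fold lower, 63 in the control culture and 18 in the OSM culture), Rbl2 (1.56-fold higher) and Cdkn2d (1.55-fold higher). In fresh cells over the control culture, 2 were higher and 3 lower (median -0.74), beside 20.4% and 15.0% of all genes. With centred arrays 0 were higher and 6 lower, beside 12.0% and 28.3%. Cdkn1a, the p21 inhibitor of CDK2, had a signal of 1428 in fresh cells, 12109 in the control culture and 9007 in the OSM culture. Rb1, the retinoblastoma protein itself, read 756, 2929 and 2182, and Cdkn2b, the p15 inhibitor of CDK4 and CDK6, read 16, 117 and 129. All 3 were thus lower in fresh cells, whereas Cdkn1b, the p27 inhibitor, and Rbl2, the p130 pocket protein, were 2.59-fold and 2.91-fold higher there, under 2-fold with centred arrays.

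Among the other 8 E2F and DP genes, E2f8 was the only gene at least 2-fold apart with OSM. Of all genes, 4.39% were lower and 6.07% higher. E2f8, a repressor of E2F targets, had a signal of 67 in fresh cells, 2939 in the control culture and 1107 in the OSM culture, which is 2.65-fold lower with OSM and 43.9-fold lower in fresh cells. E2f7, its close relative, was at least 2.38-fold lower in fresh cells than in the control culture, and E2f5 was 3.46-fold higher. In fresh cells over the control culture, 1 gene of the list was thus higher and 2 lower, beside 20.4% and 15.0% of all genes. With OSM, E2f6 was 1.39-fold lower and E2f5 1.31-fold higher. The list had a median of -0.15 in both of these comparisons.

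The next list holds genes that E2Fs switch on for DNA synthesis. Of 22 measured, 0 were at least 2-fold higher and 1 lower with OSM, with a median of -0.15, beside 6.07% and 4.39% of all genes. That gene was Gins2, a subunit of the replicative helicase, at 12 in fresh cells, 187 in the control culture and 73 in the OSM culture. Tk1 and Rrm1, both of nucleotide supply, were 1.81-fold and 1.71-fold lower with OSM. In fresh cells over the control culture, 2 were higher and 5 lower, with a median of -0.54, beside 20.4% and 15.0% of all genes. These counts became 0 and 12 with centred arrays (12.0% and 28.3% of all genes) and 1 and 10 after quantile normalization (17.0% and 19.5%). Rrm2, the small subunit of ribonucleotide reductase, read 441, 6119 and 7369, so it was 13.9-fold lower in fresh cells and 1.20-fold higher with OSM. Rrm1, its large subunit, was 3.74-fold lower in fresh cells.

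The cyclins and kinases of S, G2 and M had the largest median shift of the cell cycle lists between fresh cells and the control culture. Of 12 genes, 10 were at least 2-fold lower in fresh cells and 0 higher (median -1.91), beside 15.0% and 20.4% of all genes. Ccna2, cyclin A2, read 119 in fresh cells, 746 in the control culture and 459 in the OSM culture, Top2a, a topoisomerase, read 166, 991 and 828, and the mitotic kinase Aurka read 9, 279 and 159. With OSM 0 of 12 were at least 2-fold apart, beside 6.07% of all genes higher and 4.39% lower. Of the 12, 9 had a ratio below 0, and the median was -0.44, beside -0.01 for all genes. The lowest were Aurka (1.75-fold), Ccna2 (1.63-fold) and Cdk1 (1.54-fold).

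Transcription factors known to act on G1 cyclin promoters had the opposite direction to the main probe sets of most of the 10 genes. A total of 11 of the 16 lay at least 2-fold up and 0 down in fresh cells over the control culture (median 1.48). Of all genes 20.4% lay up and 15.0% down. With centred arrays 7 were up (median 0.92), beside 12.0% of all genes. The signal of Fos was 29074 in fresh cells, 527 in the control culture and 1233 in the OSM culture, that of Jun 27697, 2547 and 1541, and that of Myc 4550, 435 and 375. These immediate early factors were thus highest on the array on which Ccnd1 and Ccnd2 were highest, and their part in those ratios was not tested. With OSM, Fos (2.34-fold) and Stat5a (2.00-fold, 107 to 214) were higher. Fosl1, an AP-1 partner of Jun, was 2.45-fold lower, at 120 in the control culture and 49 in the OSM culture. Of the 16 genes, 2 were thus higher and 1 lower with OSM, beside 6.07% and 4.39% of all genes. Stat5a lies on the 2-fold limit, and 1 gene was higher after quantile normalization, with the median of all probe sets or with a floor of 183, which also removed the lower call of Fosl1. The median of the list with OSM was 0.32.

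Regulators of CDK activity and cyclin turnover gave 1 higher and 0 lower of 15 with OSM (median -0.08), beside 6.07% and 4.39% of all genes. The gene was Fbxo31, the receptor of a ubiquitin ligase that targets cyclin D1, with a signal of 198 in fresh cells, 50 in the control culture and 110 in the OSM culture. Against the control culture, Fbxo31 was thus 2.20-fold higher in the OSM culture and 3.96-fold higher in fresh cells. The arrays read transcripts and not proteins, and a link between Fbxo31 and cyclin D1 was not tested. Skp2, the ligase receptor for p27, was 1.41-fold lower with OSM, and Wee1, the inhibitory kinase of CDK1, was 1.39-fold higher. In fresh cells over the control culture, 2 were higher and 3 lower (median -0.30), beside 20.4% and 15.0% of all genes. With centred arrays 5 were lower (28.3% of all genes), and with the median of all probe sets 1 (12.8%). Wee1 was 5.05-fold higher in fresh cells and Cdk7, the CDK-activating kinase, 4.56-fold lower.

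The 15 cyclins and CDKs outside G1 and mitosis gave 1 higher and 0 lower with OSM (median 0.28), beside 6.07% and 4.39% of all genes. In fresh cells over the control culture 4 were higher and 1 lower (median 0.09), beside 20.4% and 15.0%. With centred arrays the latter became 2 higher and 4 lower (median -0.43), beside 12.0% and 28.3% of all genes. Cdk14, a membrane-linked kinase, was the gene higher with OSM, a call lost with the median of all probe sets and with a floor of 183, at 818 in fresh cells, 69 in the control culture and 177 in the OSM culture. Ccng1, cyclin G1, a p53 target, read 566, 5135 and 3015, and Ccnl1, a cyclin of RNA splicing, read 12631, 1818 and 1743. Cdk5 was 1.68-fold higher with OSM. All 9 genes of myogenic differentiation were at least 2-fold lower in fresh cells than in the control culture (median -3.80), beside 15.0% of all genes. With OSM 2 of them were at least 2-fold lower (median -0.77), beside 4.39%. These were Tnnt3, a fast-fibre troponin, at 302, 8994 and 3415, and Myh3, the embryonic myosin, at 1214, 18555 and 7204. Myf6 was 1.93-fold lower with OSM, and Mymk and Mef2c were 28.4-fold and 19.2-fold lower in fresh cells.

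**Figure D4:**
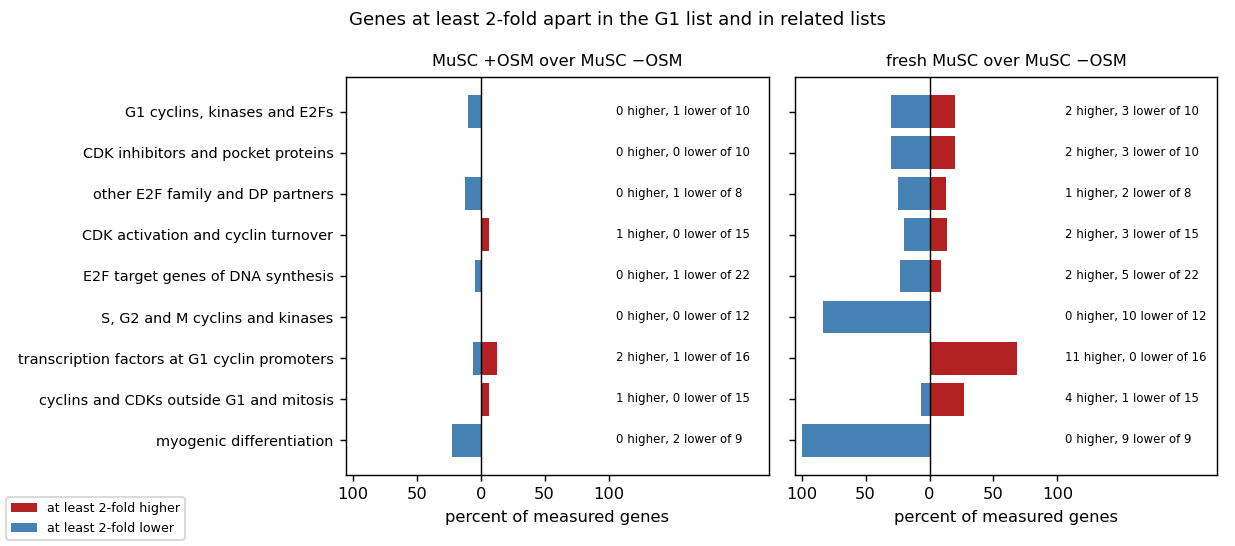
Percent of the measured genes of each list at least 2-fold higher (red, right of 0) or lower (blue, left of 0), with the counts beside each bar, for MuSC +OSM over MuSC −OSM (left) and fresh MuSC over MuSC −OSM (right), 1 array per condition. The genes at least 2-fold apart with OSM are 0 to 3 per list, whereas 10 of 12 S, G2 and M genes and 9 of 9 differentiation genes are lower, and 11 of 16 transcription factors higher, in fresh MuSC. Of all measured genes, 15.0% were lower and 20.4% higher in fresh MuSC over MuSC −OSM. In MuSC +OSM over MuSC −OSM, 4.39% were lower and 6.07% higher.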

How the data were processed

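RNA of sorted mouse MuSC was amplified with 3′ IVT Express reagents and hybridized to Affymetrix arrays, 1 for each of 3 conditions. The authors processed the arrays with MAS5 and deposited signal intensity on a linear scale (MAS5 version: not given in the sources used here). Detection calls were not used here. Conditions came from the sample labels.

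The tools were pandas 2.3.3, numpy 2.4.6 and scipy 1.17.1 under Python 3.11.15, and matplotlib 3.10.9 for the figures. After 64 control probe sets were left out, 34945 of 45037 named 1 gene, 932 several and 9160 none. Symbols were checked against RefSeq, and 0 changed. A gene took its probe set of highest mean signal, signals were raised to a floor of 40, and genes at least 2-fold apart were counted. Where a signal lay under the floor, the fold is a lower bound. Genes named were the 10 members, up to 3 measured genes per list with the largest ratio in each comparison against the control culture (MuSC −OSM), and the 3 genes most like Ccnd1; other genes named were chosen after their values were seen. Members and lists were chosen with earlier results of these data known. The alternatives were array scaling, floor, probe set rule and fold threshold. The counting was tested on simulated data, a copy of the control culture array with known fold changes and no added noise. That checks the arithmetic of the counting and not the calls in these data. Some genes of the lists are not reported here.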

Additional observations from a re-analysis of the deposited data

How the results depend on the processing

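Ccnd1 stayed at least 2-fold lower with OSM under all 8 alternatives, with log2 ratios from -2.70 to -1.53, and Ccnd1 and Ccnd2 at least 2-fold higher in fresh cells than in the control culture under all 8, from 1.21 to 1.91 and from 1.15 to 2.64. The direction of Ccnd3 against fresh cells reversed with the median of all its probe sets, to 0.77 in fresh cells over the control culture and -0.38 in the OSM culture over fresh cells. With that rule 1 of the 10 genes was lower in fresh cells than in the control culture (median -0.14; 12.8% of all genes were lower) and 1 higher in the OSM culture than in fresh cells (11.3%). Genes lower in fresh cells than in the control culture numbered 6 with arrays centred on their medians (28.3% of all genes), 1 with a floor of 183, the 75th percentile (16.5%), 5 at 1.5-fold (24.3%) and 1 at 3-fold (7.42%). Genes higher in the OSM culture than in fresh cells numbered 5 with centred arrays (median 1.02; 33.9% of all genes), 4 after quantile normalization (17.1%) and 1 with the floor of 183 (14.4%). With OSM, 4 genes were lower at 1.5-fold (13.1% of all genes), and 1, Cdk6, was higher with the probe set highest on any array (6.19%). Without _x_at probe sets, an alternative added after seeing the data, the OSM ratios of Ccne1 and Cdk4 turned to 0.32 and 0.38. Of the main counts and medians, 71 values under the alternatives stayed within 1.5-fold of the value given and 13 did not. No paired analysis was possible because each condition has 1 array. Signals near the floor, as for E2f1, limit what can be read, and so does the use of 1 array per condition.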
